A study of Cynara cardunculus with 12 samples.

Results

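The AtMYB4oe lines L24 and L18 were compared with each other, 3 RNA-seq samples of L24 against 3 of L18, of 12 samples in the series. The members are the 6 raw-count columns of these lines, chosen by their line labels, and the comparison covers all genes of the cardoon genome that passed a filter on low counts. Both lines are friable callus, a loose undifferentiated tissue, derived from leaves of cardoon (*Cynara cardunculus*, "Spagnolo" genotype) and sampled at the fourteenth sub-culture. Both carry *p35S::AtMYB4*, the coding sequence of an Arabidopsis transcription factor behind the constitutive CaMV35S promoter, and were kept on phosphinothricin with cefotaxime. L24 was made with the *Agrobacterium tumefaciens* strain AGL1 and L18 with EHA105, so that the strain and the transformation event cannot be told apart in any difference given here. Each line descends from 1 transformed callus, and RNA was extracted in triplicate from each. The adjusted p-values therefore rest on the spread among samples of 1 culture and say nothing of the spread among transformation events. The other 6 samples, of untransformed WT callus at the twenty-second sub-culture and of the line L1, served in the fit to estimate the spread, and their levels are given only as values beside those of L18 and L24. L1 is another *AtMYB4oe* line of the fourteenth sub-culture. It was made with AGL1, so that it shares the strain with L24 and not with L18. *AtMYB4* itself is not a gene of the cardoon table, and its level was not analysed here. By RT-qPCR, the paper reports transgene levels that differed among the lines, with the highest in L18. That level cannot be told apart from the strain and the transformation event either.

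AtMYB4 belongs to the R2R3 MYB family and is known in Arabidopsis as a repressor of the phenylpropanoid pathway. That pathway turns phenylalanine into hydroxycinnamic acids, flavonoids and the monolignols that laccases and peroxidases couple into lignin. Callus keeps dividing and expanding in culture, so that genes of wall loosening, auxin and cytokinin response and stress are among those usually expressed in it.

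The 6 libraries held from 12505275 to 16543902 counted reads. Within a line, the correlation of log2 CPM between samples lay between 0.971 and 0.988. The Euclidean distance between samples ran from 46.2 to 70.8 within L24 and from 51.9 to 74.8 within L18, where L18 replicates 2 and 3 lay farthest apart. Between the lines it ran from 104 to 133. The mean distance was 57.2 larger between lines than within them. No other way of dividing the 6 samples into 3 and 3 reached that value, and p = 0.1 in this one-sided exact permutation test is the lowest value possible with 10 divisions. L24 lay 103 from L1 and 133 from WT on average, and L18 lay 127 from L1 and 110 from WT. The 2 reference genes of the RT-qPCR assays differed in the same direction. *Ccrd_012208*, the elongation factor *ELF1a*, had a log2 fold change of -0.45 (adjusted p = 0.116), and *Ccrd_013113*, an actin (*ACT7*-like), one of -0.59 (adjusted p = 0.0423), which was lost without L18 replicate 1 or 2 or L24 replicate 2 or 3 (adjusted p up to 0.139) and when the median of its neighbouring genes was subtracted.

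Of 20024 genes tested, 6143 (30.7%) were called between the lines by edgeR's quasi-likelihood test at an adjusted p of 0.05 or less. In L24, 2866 genes (14.3%) were higher and 3277 (16.4%) were lower than in L18. The balance turned on the authors' FPKM, where limma on log2(FPKM + 1) called 3134 genes higher and 2678 lower. The difference was at least 2-fold in 3002 called genes (15.0% of those tested), 1496 higher and 1506 lower, and at least 16-fold in 162 and 210. The median log2 fold change over all tested genes was 0.01. In 8377 genes (41.8%) every sample of 1 line lay above every sample of the other, and 5829 of the called genes were among them. Counts are given below as normalized counts, which are scaled to a common library size, and log2 fold changes are those of L24 relative to L18 with their standard error (SE).

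**Figure D1:**
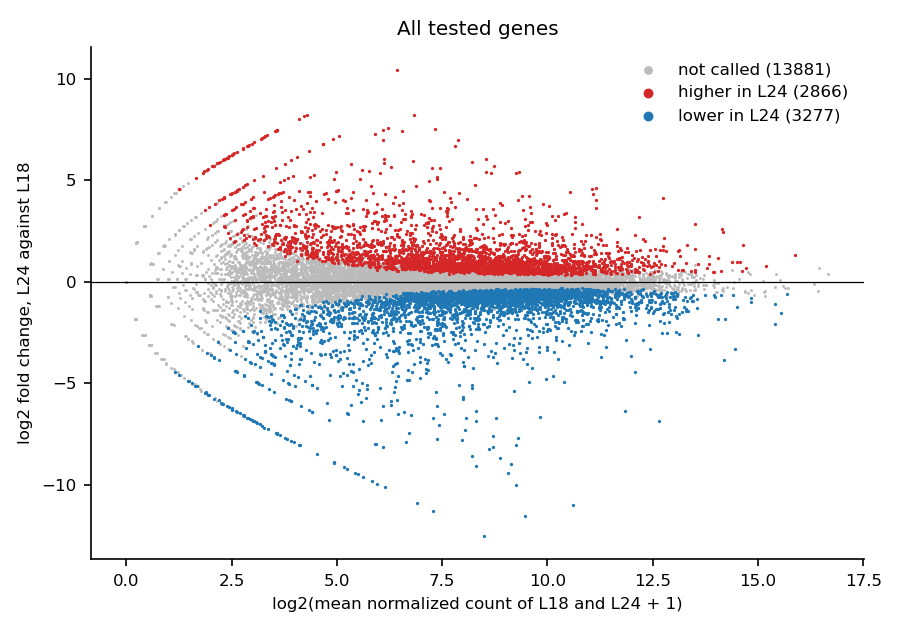
Log2 fold change of L24 against L18 (vertical axis) against the log2 of the mean normalized count of both lines plus 1 (horizontal axis), 1 point per gene tested. Red points mark the 2866 genes called higher in L24, blue points the 3277 called lower and grey points the genes that did not pass. The diagonal rays at the left are genes with few or no counts in 1 line.

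The widest differences were in genes that 1 line did not express above the floor, set at 3 counts in every sample. At the floor in L24 and at 20 or more normalized counts in every L18 sample were 54 genes, and 27 genes showed the opposite. The samples of the lines cannot overlap in genes chosen this way. WT had a mean of at least 20 normalized counts in 34 of the 54 genes and in 6 of the 27. L1 was itself at the floor in 16 of the 54 and in 2 of the 27.

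*Ccrd_014396*, described as a cupredoxin, the fold of small copper-binding proteins, lies on scaffold 36 of the CcrdV1 genome from 198652 to 201760. It had 4049, 3584 and 1759 normalized counts in L18 and 3.05, 1.11 and 0 in L24. WT (654) and L1 (98.4) lay between the lines. The summed counts of L18 were 2216.5 times those of L24, with a 95% interval from 865 to 8136.5 that covers counting error only (log2 fold change -10.99, SE 0.56, adjusted p = 4.77e-08).

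*Ccrd_017236* encodes a protein with an AAI domain, which plant lipid transfer proteins, seed storage albumins and protease inhibitors share. It had 1518, 1851 and 901 normalized counts in L18 and 0, 0 and 1.06 in L24, so that 1 read in all was counted in L24. WT had a mean of 3229.8 and L1 of 5.77. *Ccrd_016505*, a glucan endo-1,3-beta-D-glucosidase, one of the enzymes that cut the callose-type glucans, had 1401, 1592 and 676 normalized counts in L18 against 1.02, 2.22 and 0 in L24. WT (1357) was at the level of L18, and L1 (1.75) at that of L24. The log2 fold change was -11.54 (SE 0.71, adjusted p = 1.58e-07) for the first gene and -10.01 (SE 0.51, adjusted p = 4.77e-08) for the second.

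*Ccrd_015472*, a cytochrome P450, a family of mono-oxygenases, had 1477, 628 and 1074 normalized counts in L18 and 2.03, 1.11 and 1.06 in L24. Here L18 stood above WT (48.0) and L1 (104) as well. *Ccrd_006831*, with a glycoside hydrolase domain, had 798, 91.5 and 1589.8 in L18 and 2.03, 3.32 and 3.18 in L24. Its L18 samples differed widely among themselves, with L18 replicate 2 the lowest, and WT (0.818) was as low as L24. No read of the uncharacterized *Ccrd_006268* was counted in any L24 sample, against 796, 1016 and 354 normalized counts in L18. Set against 3 counts over the 3 L24 samples, it was at least 673-fold lower in L24. *Ccrd_026126*, also uncharacterized, was at least 294-fold lower by the same rule, and *Ccrd_004370*, with a phytocyanin domain and thus another likely copper protein, at least 117-fold.

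In the other direction, *Ccrd_024179* encodes nicotianamine synthase, which makes the metal chelator that plants use to move iron, zinc and copper. It lies on scaffold 11837 from 519 to 1508 and had 2.69, 1.05 and 0.946 normalized counts in L18 and 267, 298 and 389.8 in L24. L18 alone was at the floor, since WT had a mean of 814 and L1 of 4742. The summed counts of L24 were 199 times those of L18 (95% interval 84.8 to 613, counting error only; log2 fold change 7.53, SE 0.46, adjusted p = 1.58e-07). *Ccrd_020183* carries the conserved site of ADP-glucose pyrophosphorylase, the enzyme that commits glucose to starch, and showed the same pattern. It had 0, 1.05 and 0.946 normalized counts in L18 and 145, 300.2 and 225 in L24, with 124 in WT and 306 in L1.

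The genes of this kind described as bHLH had no read in WT. *Ccrd_018248*, a transcription factor of the bHLH family, had 0, 0 and 2.84 normalized counts in L18, 105, 99.7 and 200.2 in L24 and a mean of 12.3 in L1 (log2 fold change 6.96, SE 0.68, adjusted p = 1.81e-05). *Ccrd_019170* had 2.69, 3.16 and 0.946 in L18 and 126, 109 and 173 in L24, with 78.9 in L1. *Ccrd_004322*, also with a bHLH domain, had no read in L18 and 27.5, 26.6 and 58.3 in L24, with 174 in L1 (log2 fold change 8.23, SE 0.84). *Ccrd_022172*, a protein kinase, was above the floor in L18, with 6.28, 3.16 and 2.84 normalized counts, and had 368, 508 and 450.2 in L24 (log2 fold change 6.69, SE 0.29, adjusted p = 3.81e-08). Of the genes without a description, *Ccrd_020670* had no read in L18 and was at least 175-fold higher in L24, with 95.6, 233 and 182 normalized counts beside means of 21.5 in WT and 23.4 in L1.

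**Figure D2:**
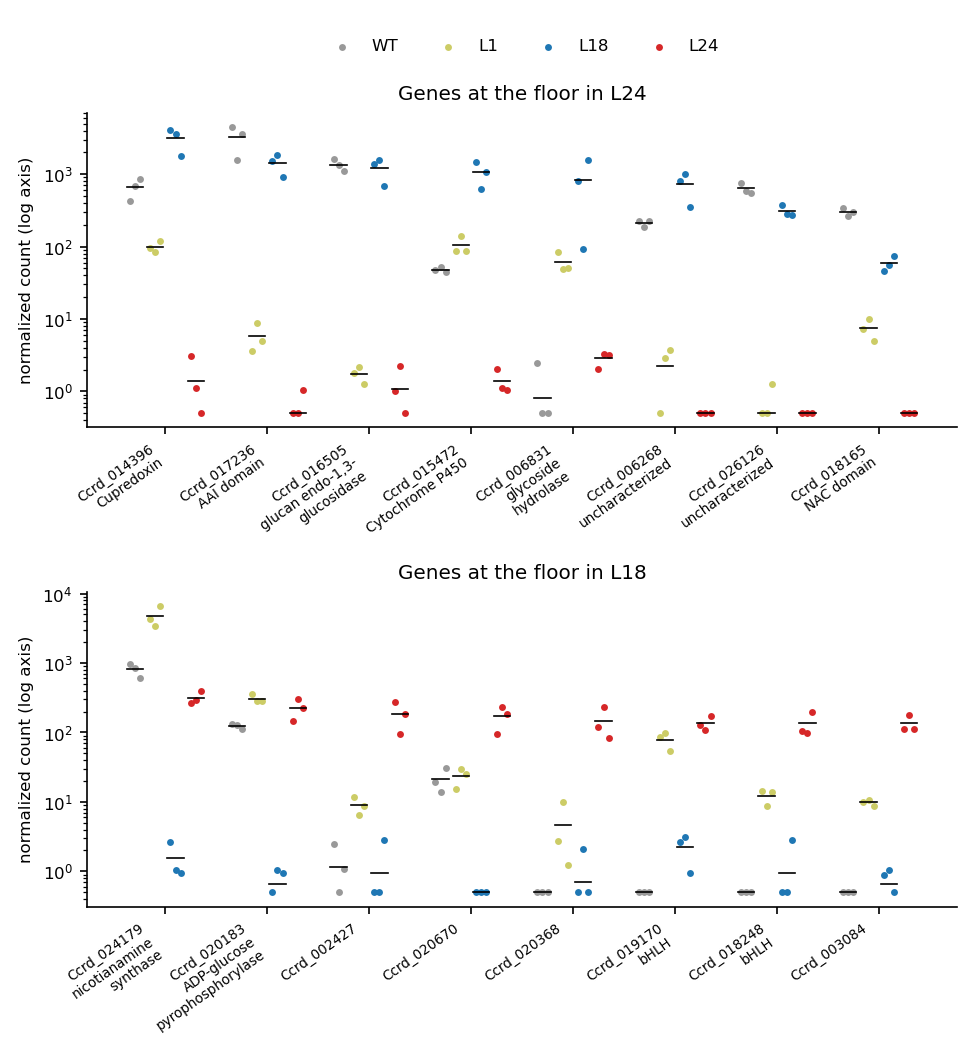
Normalized counts (log axis) of 8 genes at the floor in L24 (top) and 8 at the floor in L18 (bottom), in WT (grey), L1 (yellow), L18 (blue) and L24 (red). Each point is a sample, the bars are means of 3 samples, and values of 0 are drawn at the bottom of the axis. The red and blue points cannot overlap, by the choice of these genes, while WT and L1 follow sometimes 1 line and sometimes the other.

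Among genes with many reads, the xyloglucan endotransglucosylase/hydrolase *Ccrd_000418*, a wall enzyme that cuts and rejoins xyloglucan chains, had 62120, 79530 and 71327 normalized counts in L18 and 31487, 15630 and 27435 in L24. It is one of the most abundant transcripts in both lines, at a mean FPKM of 4157 and 1527, and was lower in L24 by a log2 fold change of -1.51 (SE 0.30, adjusted p = 0.00207), against a mean of 253 normalized counts in WT. The uncharacterized *Ccrd_013001* had 73296, 80488 and 57505 in L18 and 16941, 16524 and 16266 in L24 (log2 fold change -2.09, SE 0.21, adjusted p = 7.91e-06). Its L24 samples were within a narrow range, and L1 (15556) stood with L24 while WT (77493) stood with L18. *Ccrd_026156*, without a description, was lower by -1.09 (SE 0.28). The 3 most abundant genes in the other direction were led by *Ccrd_010965*, without a description, at 43410, 22141 and 37885 in L18 and 101810, 74646 and 83339 in L24 (log2 fold change 1.33, SE 0.25, adjusted p = 0.00147). *Ccrd_011933*, a Kunitz inhibitor, the class of protease inhibitors found in seeds and wounded tissue, had 7171, 1965 and 6416 in L18 and 30601, 32038 and 30283 in L24 (log2 fold change 2.58, SE 0.42, adjusted p = 4.68e-04). *Ccrd_025924*, without a description, was higher by 1.84 (SE 0.17).

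The lists of gene families that follow hold 602 genes, of which all passed the filter and 314 (52.2%) were called, 140 higher and 174 lower in L24. Most lists were built from the descriptions in a shortened copy of a supplementary table, which holds 3630 genes that the study called between L1 and WT. A list therefore need not hold every gene of its family. Of the 3629 genes of that copy tested here, 49.2% were called between L24 and L18, and the share in a list is best read beside this value as well as beside the 30.7% of all genes. The lists that carry a gene ontology (GO) term were chosen by the study on samples that include L18 and L24, so that their counts are not independent evidence.

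**Figure D3:**
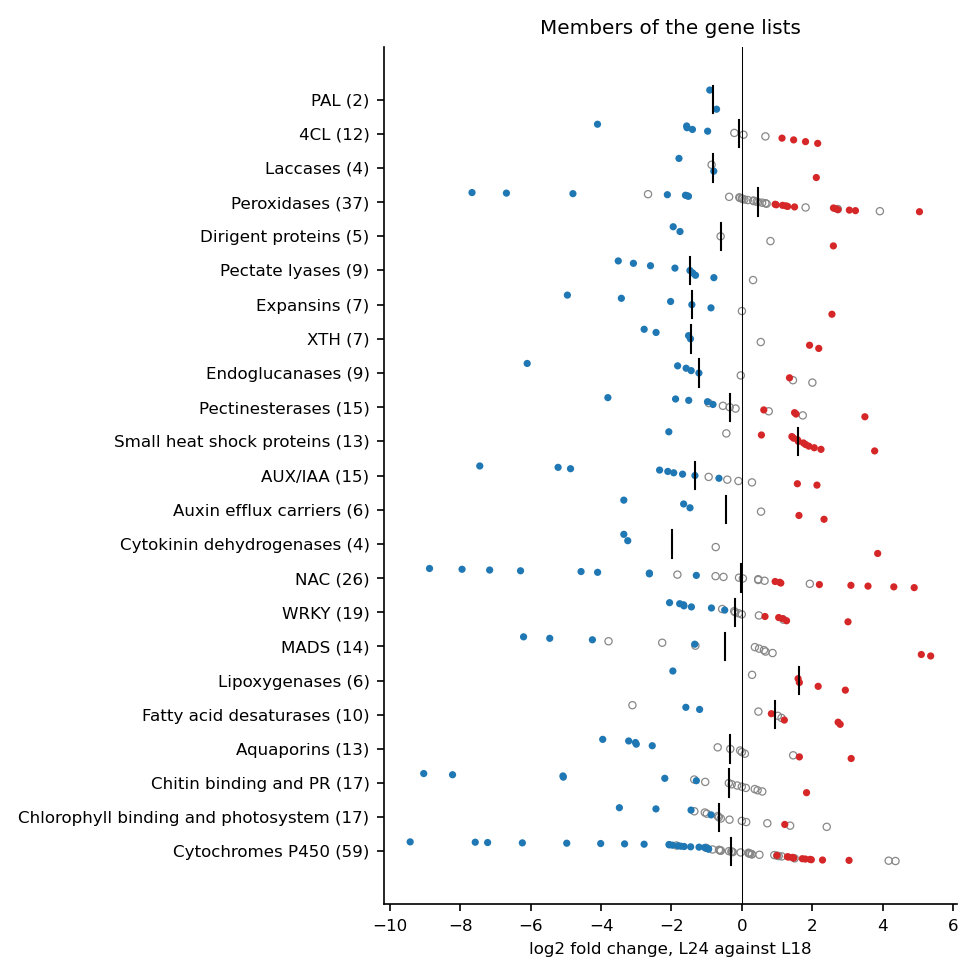
Log2 fold change of L24 against L18 for each member of the gene lists shown, with the number of members in brackets. Red and blue points were called higher and lower in L24, open points were not called, and the vertical bar is the median. Pectate lyases lie almost entirely to the left of 0 and small heat shock proteins to the right, while 4CL, NAC and peroxidase genes spread over both sides.

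At the entry of the phenylpropanoid pathway, the PAL genes read here were lower in L24. Phenylalanine ammonia-lyase (PAL) removes the amino group of phenylalanine, and both genes with that description in the shortened table were called. *Ccrd_007512*, the more abundant one by FPKM, had 11483, 12405 and 8271 normalized counts in L18 and 6898, 6952 and 5690.4 in L24, with no overlap between the lines (log2 fold change -0.72, SE 0.23, adjusted p = 0.028). *Ccrd_014855* had 148, 190.4 and 94.6 in L18 and 79.3, 98.6 and 51.9 in L24, where L18 replicate 3 lay below L24 replicate 2 (log2 fold change -0.91, SE 0.31, adjusted p = 0.039). Both PAL calls were narrow. That of *Ccrd_007512* was lost without L18 replicate 1 or 2 or L24 replicate 2 or 3 (adjusted p up to 0.109), and that of *Ccrd_014855* without L18 replicate 1 or 2 or L24 replicate 1 or 3 (adjusted p up to 0.159). The gene that the study names for the next enzyme, cinnamate 4-hydroxylase (*Ccrd_010165*), had 5623, 6089 and 4717 in L18 and 4892, 3831 and 4026 in L24 and did not pass (log2 fold change -0.37, SE 0.19, adjusted p = 0.156).

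The 4-coumarate:CoA ligase genes (4CL), whose enzymes activate hydroxycinnamic acids with coenzyme A, went both ways, with 4 of 12 higher, 5 lower and 3 not called and a median log2 fold change of -0.08. *Ccrd_007113* had 979, 1409 and 1238 normalized counts in L18 and 282, 516 and 425 in L24 (log2 fold change -1.57, SE 0.21, adjusted p = 1.06e-04). *Ccrd_018719* had 870.3, 759 and 709.7 in L18 and 271, 359 and 254 in L24 (log2 fold change -1.40, SE 0.23, adjusted p = 3.98e-04). In both genes all L18 samples lay above all L24 samples. The scarce *Ccrd_018671* differed most among the lower members, at 38.6, 19.98 and 19.9 against 3.05, 1.11 and 0, a ratio of summed counts of 18.8 (95% interval 7.08 to 70.7). Among the higher members, *Ccrd_012931* had 464, 326 and 432 normalized counts in L18 and 1242, 1094 and 1056 in L24 (log2 fold change 1.47, SE 0.22, adjusted p = 2.43e-04). *Ccrd_003434* had 110.4, 62.1 and 171 in L18 and 326, 734 and 477 in L24 (log2 fold change 2.16, SE 0.38). The 4CL gene that the study followed by RT-qPCR, *Ccrd_015556*, had means of 657 ± 113 and 678 ± 63.2 (SD, n = 3) in L18 and L24 and did not pass (log2 fold change 0.05, SE 0.18). Summed over the 12 genes, the 4CL counts of the lines overlapped, from 4669 to 4785 in L18 and from 3869.5 to 5386 in L24.

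The gene that the study names for hydroxycinnamoyl transferase (HCT, *Ccrd_015561*), which makes the shikimate and quinate esters that are then hydroxylated to caffeoyl compounds, had 205, 268 and 177 normalized counts in L18 and 127, 98.6 and 104 in L24. Its log2 fold change was -0.98 (SE 0.27, adjusted p = 0.0154), and the call was lost without L18 replicate 2 or L24 replicate 2 or 3 (adjusted p up to 0.0589). Caffeoyl-CoA O-methyltransferases (CCoAOMT) methylate caffeoyl-CoA on the way to monolignols, and their genes differed in both directions. *Ccrd_004659* had 23.3, 24.2 and 18.9 in L18 and 1.02, 2.22 and 4.24 in L24 (log2 fold change -3.10, SE 0.72, adjusted p = 0.00513), against a mean of 677 in WT. *Ccrd_012618* was higher by 1.96 (SE 0.38). The CCoAOMT gene with the highest FPKM, *Ccrd_019031*, was lower by -0.56 (SE 0.19, adjusted p = 0.0429), a call that held only without L18 replicate 3 among the fits that left out 1 library (adjusted p up to 0.206 in the other 5). *Ccrd_012615* was higher by 0.59 (SE 0.20, adjusted p = 0.0416), and lost its call without L18 replicate 2 or 3 or L24 replicate 2 or 3 (adjusted p up to 0.178).

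Upstream, the shikimate pathway supplies phenylalanine. Of the 9 genes under the GO term aromatic amino acid family biosynthetic process, 4 were lower and none higher in L24. The share called, 44.4%, lay between the 30.7% of all genes and the 49.2% of the table most lists came from. When 1 library was left out, 3 to 5 were lower. The lower genes include chorismate mutase (*Ccrd_012528*), at the branch towards phenylalanine and tyrosine. It had 958, 866 and 627 normalized counts in L18 and 412, 402 and 369.7 in L24 (log2 fold change -1.05, SE 0.18, adjusted p = 7.81e-04). A phospho-2-dehydro-3-deoxyheptonate aldolase (*Ccrd_022051*), the first enzyme of the shikimate pathway, had 3885, 3591 and 2174 in L18 and 1712, 1439.9 and 1615 in L24 (log2 fold change -1.02, SE 0.19, adjusted p = 0.00131). In both genes the lines did not overlap. Of the 8 genes under phenylpropanoid metabolic process, which are the PAL pair and 6 of the 4CL genes, 6 were lower and none higher, and the median log2 fold change was -1.16. Under lignin biosynthetic process, 3 of 5 were lower and 1, *Ccrd_012615*, higher.

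The genes that act at the end of lignin formation differed without a common direction. Laccases oxidize monolignols in the wall, and 2 of 4 genes were lower and 1 higher, or 1 lower without L18 replicate 1, L24 replicate 1 or L24 replicate 3. *Ccrd_003100*, the laccase with the highest FPKM in L24, had 1203, 2186 and 2137 normalized counts in L18 and 9449.5, 8296 and 6212 in L24 (log2 fold change 2.12, SE 0.30, adjusted p = 1.46e-04). *Ccrd_011628* had 1884, 4326 and 3599.7 in L18 and 1324, 665 and 853 in L24 (log2 fold change -1.79, SE 0.44, adjusted p = 0.00702). Of the 5 dirigent proteins, which guide the coupling of phenoxy radicals, the abundant *Ccrd_021500* (12505, 17011 and 10264 against 5686, 2362 and 3718) and *Ccrd_002570* were lower by -1.76 and -1.95, and the scarce *Ccrd_023309* was higher by 2.60.

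Of 37 peroxidases, enzymes that oxidize phenolics with hydrogen peroxide, 12 were higher and 7 lower in L24, a share of 51.4% called that is close to that of the table the list came from. Whichever library was left out, only 7 to 9 were called higher and 6 or 7 lower. The count of higher genes was 7 without L18 replicate 1. *Ccrd_007497* had 1236, 957 and 1544 normalized counts in L18 and 10.2, 2.22 and 5.30 in L24 (log2 fold change -7.67, SE 0.40, adjusted p = 4.77e-08). *Ccrd_018407* had 270.1, 564 and 746 in L18 and 3.05, 11.1 and 1.06 in L24 (log2 fold change -6.69, SE 0.64, adjusted p = 6.27e-06). The lines were separate in both genes by wide gaps, although WT was low in the second (4.82) and L1 high (1694). *Ccrd_004165* and *Ccrd_018836* were lower by -4.80 (SE 0.39) and -2.12 (SE 0.17). Among the higher ones were neighbours in the identifier order, *Ccrd_004508*, *Ccrd_004510* and *Ccrd_004513*, at log2 fold changes of 3.23, 2.65 and 3.06. The scarce *Ccrd_000415* had 0, 5.26 and 0 normalized counts in L18 and 17.3, 55.4 and 101 in L24 (log2 fold change 5.05, SE 0.95). *Ccrd_004510* had 42.2, 126 and 174 normalized counts in L18 and 793, 825 and 523 in L24. Such neighbours can be near copies of each other, and how reads shared by copies were counted is not given in the sources used here, so that the split among them is uncertain.

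Genes of wall loosening and pectin breakdown were lower in L24 more often than higher. Pectate lyases cleave the unmethylated pectin of the middle lamella, and 8 of 9 genes were lower and none higher, with a median log2 fold change of -1.47. *Ccrd_012421*, with the highest FPKM in both lines, had 14727, 28824 and 18924 normalized counts in L18 and 3134, 4852 and 2338 in L24 (log2 fold change -2.60, SE 0.31, adjusted p = 3.34e-05). It lies on scaffold 17 from 18041 to 19706, and its lowest L18 sample stood well above its highest L24 sample. *Ccrd_007587* had 287, 513 and 152 in L18 and 41.7, 9.97 and 30.7 in L24 (log2 fold change -3.51, SE 0.63, adjusted p = 9.18e-04). The member that was not called, *Ccrd_007870*, had means of 890.1 ± 124 in L18 and 1110.2 ± 80.5 in L24 (SD, n = 3). Summed over the 9 genes, the samples had 26966, 55786 and 33953 normalized counts in L18 and 11424, 12060 and 8837 in L24. L1 (9288) stood with L24, and WT (17912) lay between the lines.

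Expansins, which loosen walls without cutting them, were lower in 5 of 7 genes and higher in 1, with a median of -1.42. *Ccrd_003304*, with the highest FPKM in both lines, had 15596, 19036 and 10822 normalized counts in L18 and 6546, 5969 and 4458 in L24 (log2 fold change -1.42, SE 0.29, adjusted p = 0.0021). *Ccrd_016763* had 63.7, 166 and 44.5 in L18 and 7.12, 0 and 1.06 in L24 (log2 fold change -4.96, SE 0.77, adjusted p = 2.89e-04). Of the 5, 3 were called without L24 replicate 2 or without L24 replicate 3. Endoglucanases, the plant cellulases, were lower in 5 of 9 genes and higher in 1, and without L18 replicate 2, L24 replicate 2 or L24 replicate 3 they held 3 lower and none higher. *Ccrd_014951* led them with 141, 745 and 89.9 in L18 against 2.03, 4.43 and 7.41 in L24 (log2 fold change -6.10, SE 0.88, adjusted p = 1.70e-04). Of the 7 xyloglucan endotransglucosylase/hydrolase genes (XTH), 4 were lower, *Ccrd_000418* among them, and 2 were higher, led by *Ccrd_020334* (130.1, 336 and 149.5 against 1029, 1006 and 756; log2 fold change 2.19, SE 0.35). Without L18 replicate 1 or L24 replicate 3, 2 XTH genes were called lower. Pectinesterases, which remove the methyl groups of pectin, went both ways, with 5 of 15 lower and 4 higher. *Ccrd_011397* had 2632, 2869 and 2122 in L18 and 969, 515 and 580.5 in L24 (log2 fold change -1.88, SE 0.22). *Ccrd_006765*, at 3059, 3964 and 3986 in L18 and 10716, 13747 and 7555 in L24, was higher by 1.54 (SE 0.33).

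Small heat shock proteins, chaperones that bind unfolding proteins and are induced by heat and other stress, were higher in L24 in 11 of 13 genes and lower in 1, with a median log2 fold change of 1.61. *Ccrd_011725*, with the highest FPKM in both lines, had 1586, 1295 and 1600.2 normalized counts in L18 and 3916, 4422 and 3670.4 in L24 (log2 fold change 1.42, SE 0.23, adjusted p = 3.77e-04). *Ccrd_020229*, on scaffold 482 from 153034 to 153522, had 247, 232 and 222 in L18 and 1209, 1108 and 1022 in L24 (log2 fold change 2.25, SE 0.26, adjusted p = 2.98e-05). *Ccrd_008396* differed most, at 14.4, 9.47 and 11.4 against 224, 133 and 132 (log2 fold change 3.78, SE 0.44). In each of these the spread within a line was small beside the gap. The exception was *Ccrd_015259*, with an alpha crystallin/Hsp20 domain, at 857, 916 and 601 in L18 and 195, 138 and 229 in L24 (log2 fold change -2.08, SE 0.23, adjusted p = 1.72e-05). Summed over the 13 genes, the samples had 5286, 4725 and 4607 normalized counts in L18 and 10803, 11779 and 10357 in L24, beside 6638 in WT and 24036 in L1. The 3 genes of the HSP70 class, larger chaperones, were not called and summed to between 44.9 and 68.4 in L18 and between 30.5 and 42.1 in L24.

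**Figure D4:**
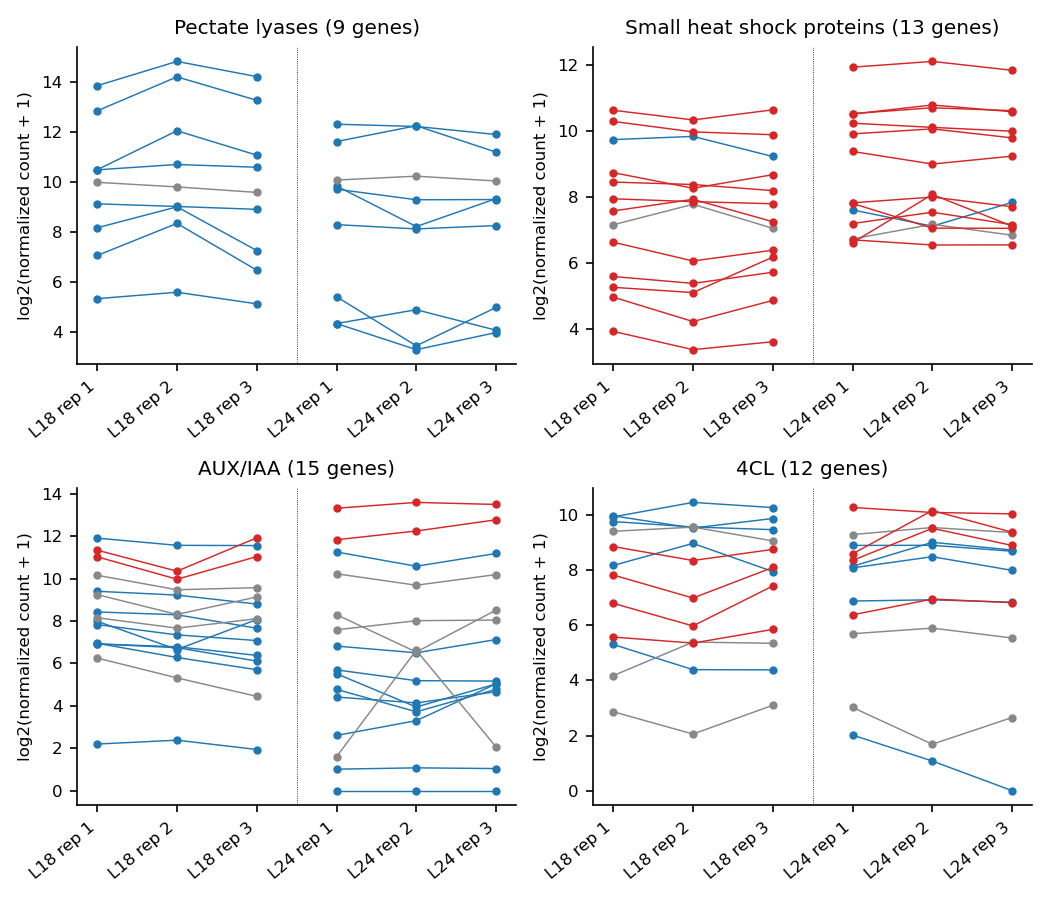
Log2 of the normalized count plus 1 in each sample of L18 and L24 for all members of 4 gene lists. Lines join the points of 1 gene within a line and imply no order of the replicates. Genes called lower in L24 are blue, those called higher red and the rest grey, so that 8 blue lines step down among the pectate lyases and 11 red lines step up among the small heat shock proteins.

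Genes of auxin response and transport differed in both directions. AUX/IAA proteins repress auxin-response genes until auxin triggers their breakdown, and 9 of 15 were lower and 2 higher in L24, with a median of -1.33. *Ccrd_025821* had 253, 99.9 and 268 normalized counts in L18 and about 1 in every L24 sample, as 1 read was counted in each (1.02, 1.11 and 1.06; ratio of summed counts 199, 95% interval 67.9 to 969.6; adjusted p = 2.92e-06). *Ccrd_026588* had 677, 597 and 445 in L18 and 5.08, 8.86 and 31.8 in L24 (log2 fold change -5.22, SE 0.66, adjusted p = 6.08e-05). The member with the highest FPKM in L24 went the other way, since *Ccrd_003598* had 2598, 1306 and 3888 in L18 and 10242, 12385 and 11587 in L24 (log2 fold change 2.14, SE 0.32, adjusted p = 2.57e-04). *Ccrd_024984* was also higher, by 1.58 (SE 0.29). The summed counts of the list, which these genes dominate in L24, were higher in L24, from 18310 to 23020 against 8091 to 12516, although its median log2 fold change was below 0. Of the 6 auxin efflux carriers, which export auxin from cells, 3 were lower and 2 higher. *Ccrd_009752* had 279, 344 and 263 in L18 and 1852, 1308 and 1314 in L24 (log2 fold change 2.34, SE 0.22), and *Ccrd_013799* 371, 899 and 134 against 72.2, 31.01 and 32.8 (log2 fold change -3.35, SE 0.56). SAUR genes, early auxin-induced genes, held 2 higher and 5 lower of 22, a share of 31.8% that is near the 30.7% of all genes, and 3 lower without any 1 library of the 6.

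Cytokinin dehydrogenases break down cytokinins, and 3 of 4 genes were called in opposite directions. *Ccrd_003971* had 44.9, 64.2 and 71.0 normalized counts in L18 and 971, 844 and 801 in L24, with 2.68 in WT and 41.7 in L1, and was thus highest in L24 of all groups (log2 fold change 3.86, SE 0.24, adjusted p = 1.58e-07). *Ccrd_020551* had 177, 183 and 95.6 in L18 and 15.3, 16.6 and 15.9 in L24 (log2 fold change -3.24, SE 0.42, adjusted p = 7.74e-05). *Ccrd_018217* was lower by -3.35 (SE 0.49).

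Families of transcription factors held large differences of both signs. Of 26 NAC genes, a family with regulators of wall thickening and of senescence in other plants, 8 were higher and 9 lower. *Ccrd_016142*, on scaffold 6 from 701687 to 703062, had 324, 91.5 and 203 normalized counts in L18 and 4932, 3885 and 3576 in L24, near the mean of L1 (6113) and far above that of WT (241; log2 fold change 4.32, SE 0.49, adjusted p = 2.45e-05). *Ccrd_011094* had 169, 122 and 150.5 in L18 and 1534, 1066 and 1194 in L24 (log2 fold change 3.10, SE 0.34). *Ccrd_018165* had 45.8, 55.7 and 74.8 in L18, 304 in WT and no read in L24, so that it was at least 55.3-fold lower there. *Ccrd_010627* had 324, 479.6 and 353 in L18 and 50.8, 54.3 and 81.6 in L24 (log2 fold change -2.63, SE 0.26). Of 19 WRKY genes, many of which act in defence, 5 were higher and 7 lower, or 4 lower without L24 replicate 3. *Ccrd_004878* had 749, 826 and 659.6 in L18 and 261, 233 and 219 in L24 (log2 fold change -1.65, SE 0.16, adjusted p = 6.15e-06), and *Ccrd_001788* 5.38, 14.7 and 18.0 against 91.5, 119.6 and 97.5 (log2 fold change 3.02, SE 0.39).

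Of 14 genes with a MADS-box or the K-box that accompanies it, a family of developmental regulators, 2 were higher and 4 lower, or 2 lower without L18 replicate 3. The share called, 42.9%, lay between the 30.7% of all genes and the 49.2% of the table most lists came from. *Ccrd_001029* had 7.18, 11.6 and 37.9 normalized counts in L18 and 614, 795 and 945 in L24 (log2 fold change 5.37, SE 0.57, adjusted p = 1.46e-05). *Ccrd_022071* had 670.2, 555 and 473 in L18 and 11.2, 57.6 and 21.2 in L24 (log2 fold change -4.25, SE 0.40, adjusted p = 6.12e-06). Neither gene had a sample of 1 line within the range of the other. *Ccrd_019107*, the MADS gene that the study followed by RT-qPCR, had at most 1 read per sample in L18 and 37.6, 6.65 and 33.9 normalized counts in L24 (ratio of summed counts 41.4, 95% interval 11.1 to 348). The share called among AP2/ERF genes (10 higher and 9 lower of 39) was 48.7%, close to the 49.2% of the table they came from. Among bHLH genes (7 and 10 of 38) it was 44.7%. *Ccrd_016332*, the AP2 gene of the RT-qPCR assays, had a log2 fold change of 0.05 (SE 0.18), and *Ccrd_024577*, the NADPH dehydrogenase of the same assays, one of -0.26 (SE 0.65). Neither was called.

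The 11 MYB-related genes that the study names, here with its putative Arabidopsis counterparts, held 2 higher and 2 lower in L24 and 7 not called, a share of 36.4% called. *Ccrd_007105* (AtMYB5) had 116, 123 and 95.6 normalized counts in L18 and 53.9, 84.2 and 61.4 in L24 (log2 fold change -0.74, SE 0.20, adjusted p = 0.012), a call lost without L24 replicate 3 (adjusted p = 0.0504). *Ccrd_009207* (AtMYB14) was higher by 0.74 (SE 0.23, adjusted p = 0.025) and *Ccrd_012299* (AtMYB36) by 1.04 (SE 0.35, adjusted p = 0.0385). Their samples overlapped, and the calls were lost in 4 and 5 of the 6 fits that left out 1 library, *Ccrd_009207* keeping its call without L18 replicate 1 or L24 replicate 1 and *Ccrd_012299* without L24 replicate 1 (adjusted p up to 0.0995 and 0.272). *Ccrd_006948* (AtMYB79) had 11.7, 1.05 and 2.84 in L18 and 1.02, 0 and 0 in L24 (ratio of summed counts 15.4, 95% interval 2.41 to 644; adjusted p = 0.0498), and kept its call only without L18 replicate 2 or 3 (adjusted p up to 0.296 in the others). Of the 7 that were not called, *Ccrd_002100* (AtMYBS2) had means of 343 ± 37.6 and 335 ± 13.4 (SD, n = 3) in L18 and L24, and *Ccrd_001632* (AtMYB62) 238 ± 113 and 309.7 ± 86.2. *Ccrd_012123* (AtMYB38) had 677 ± 150.2 and 734 ± 112, and *Ccrd_013908* (AtMYB107) 37.1 ± 13.0 and 42.9 ± 6.86. The scarce *Ccrd_002014* (AtMYB15) had 4.30 ± 3.54 and 6.66 ± 1.96, and *Ccrd_001286* (AtMYB19) 1.88 ± 2.51 and 2.52 ± 2.23. *Ccrd_018110* (AtMYB48) had 1 read in all in L18 and none in L24, against a mean of 123 normalized counts in WT.

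Genes of lipids, water transport and defence proteins added further contrasts. The non-specific lipid-transfer protein *Ccrd_018445* was among the most abundant transcripts of L18, with 45518, 41348 and 35474 normalized counts against 4275, 4038 and 4162 in L24 (log2 fold change -3.29, SE 0.22, adjusted p = 3.13e-07). WT had a mean of 119340 and L1 of 5862, so that L18 lay between WT and L24. The other 4 genes of its list had no read in L24 and were not called. Lipoxygenases, which add oxygen to polyunsaturated fatty acids on the way to jasmonates and other oxylipins, were higher in 4 of 6 genes and lower in 1, whose call held only without L18 replicate 3 among the fits that left out 1 library. *Ccrd_019992* had 332, 276 and 506 in L18 and 1959, 3886 and 2719 in L24 (log2 fold change 2.94, SE 0.29, adjusted p = 7.37e-06). Of 10 fatty acid desaturases, which place double bonds in acyl chains, 4 were higher and 2 lower, but only 1 was called higher without L18 replicate 3 or without L24 replicate 1, and none lower without L18 replicate 1 or without L24 replicate 2. *Ccrd_009530* had 37.7, 21.0 and 40.7 in L18 and 185, 315 and 197 in L24 (log2 fold change 2.80, SE 0.57).

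Aquaporins, channels for water and small solutes, were lower in 5 of 13 genes and higher in 2, or in 1 without L18 replicate 1, L18 replicate 3 or L24 replicate 2. *Ccrd_004985* had 12740, 19210 and 13520 normalized counts in L18 and 4146, 1178 and 2458 in L24 (log2 fold change -2.55, SE 0.35, adjusted p = 1.18e-04), and *Ccrd_001880* was lower by -3.22 (SE 0.43). *Ccrd_014167* was higher, with 28.7, 9.47 and 19.9 in L18 and 188, 203 and 119.7 in L24 (log2 fold change 3.11, SE 0.43). Of 17 genes with chitin-binding or Bet v 1 domains, which mark classes of pathogenesis-related proteins, 6 were lower and 1 higher. The share called was 41.2%, and 53.8% among the aquaporins, beside 30.7% of all genes and 49.2% of the table most lists came from. *Ccrd_026859*, with a chitin-binding domain, had 901, 865 and 566 in L18 and 0, 1.11 and 6.36 in L24 (log2 fold change -8.22, SE 0.52, adjusted p = 2.37e-07). *Ccrd_000232*, with a Bet v 1 domain, had 471, 1189.6 and 213 in L18 and 3.05, 0 and 0 in L24, a ratio of summed counts of 568 (95% interval 194 to 2758.7). *Ccrd_013526*, with the highest FPKM in L18 among those with a chitin-binding domain, had 4474, 7849.5 and 4483 in L18 and 1517, 1178 and 986 in L24 (log2 fold change -2.19, SE 0.28). L1 (419.6) was lower still, and WT (8489) was at the level of L18.

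Among 59 cytochromes P450, 12 were higher and 21 lower in L24. The share called was 55.9%, beside 30.7% of all genes and 49.2% of the table most lists came from. Whichever library was left out, 11 or 12 were called higher and 17 to 21 lower. Besides *Ccrd_015472*, *Ccrd_015261* had 1353, 596 and 552 normalized counts in L18 and 4.07, 3.32 and 5.30 in L24 (log2 fold change -7.58, SE 0.47, adjusted p = 1.78e-07). *Ccrd_022806*, which also led by FPKM among the P450 genes called lower, had 4633, 4742 and 5948 in L18 and 1257, 1165 and 1245 in L24 (log2 fold change -2.06, SE 0.16, adjusted p = 1.45e-06). The UDP-glycosyltransferases, which attach sugars to small molecules, had 10 higher and 5 lower of 33. Their share called, 45.5%, lay between the 30.7% and the 49.2%. Without any library in turn, 8 to 10 of them were called higher and 5 or 6 lower. The called members include *Ccrd_022118* (135, 222 and 199 against 1198, 1290.3 and 1185; log2 fold change 2.73, SE 0.23) and *Ccrd_023568* (724, 594 and 543 against 8.14, 2.22 and 5.30; log2 fold change -6.84, SE 0.46).

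The methods state growth in the dark for WT callus, while the light given to L18 and L24 is not given in the sources used here. Of 17 genes of the light reactions and Rubisco, 4 were lower, 1 was higher and 12 were not called, a share of 29.4% that is near the 30.7% of all genes. *Ccrd_006280*, a chlorophyll a-b binding protein, had 1270.5, 1132 and 1190.4 normalized counts in L18 and 91.5, 95.3 and 135 in L24 (log2 fold change -3.48, SE 0.20, adjusted p = 1.27e-07). Over the list, the summed counts were 2587 to 3154 in L18 and 813 to 1142 in L24, with 1895 in WT and 2862 in L1. *Ccrd_006280* alone held a large part of the L18 sums, and the median log2 fold change of the list was -0.66. Fewer cells of a kind and less RNA per cell cannot be told apart in such bulk samples.

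Among genes of the cell cycle, both cyclin-dependent kinase inhibitors listed were called, in opposite directions. *Ccrd_010818* (KRP7-like), of a class that holds back cell division, had 50.2, 69.4 and 36.9 normalized counts in L18 and 6.10, 0 and 5.30 in L24 (log2 fold change -3.71, SE 0.51, adjusted p = 1.16e-04). The other inhibitor, *Ccrd_012564*, was higher by 1.44 (SE 0.48, adjusted p = 0.0364), a call kept only without L24 replicate 2 among the fits that left out 1 library (adjusted p up to 0.157 in the others). Of the 20 genes under microtubule-based movement, a term that covers kinesins, motor proteins of the spindle and of transport, 7 were higher and none lower, with a median of 0.57. This count rested on single libraries. It was 1 without L18 replicate 1, L18 replicate 2 or L24 replicate 2, 2 without L24 replicate 3 and 12 without L18 replicate 3. *Ccrd_004761*, a kinesin-like gene among the called members, had 157, 143 and 276 in L18 and 326, 459.6 and 449 in L24 (SE of the log2 fold change 0.28, adjusted p = 0.00829). Of 11 genes described as kinesins, 3 were higher and none lower. Only 1 was higher without L18 replicate 1 or 2 or L24 replicate 2 or 3, and 6 were without L18 replicate 3. The share called was 35% under microtubule-based movement and 27.3% among the kinesins. Both shares were near the 30.7% of all genes and below the 49.2% of the table most lists came from. Of 5 cyclins, 1 was lower, and none was without L18 replicate 2 or 3 or L24 replicate 2. Of 3 genes that the study links to mitosis, *Ccrd_006023*, a serine/threonine kinase, had 109, 157 and 146 in L18 and 229.8, 302 and 225 in L24 (log2 fold change 0.88, SE 0.22, adjusted p = 0.00831). *Ccrd_013806* and *Ccrd_000826* had log2 fold changes of 0.08 (SE 0.19) and 0.23 (SE 0.26) and were not called.

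CASP-like genes, membrane proteins related to those that shape the Casparian strip, held 5 higher and 1 lower of 18, with a median of 0.06. The share called, 33.3%, was near the 30.7% of all genes and below the 49.2% of the table the list came from. The largest rises were in *Ccrd_026593* (35.9, 6.31 and 22.7 against 399.7, 622 and 343; log2 fold change 4.36, SE 0.49) and *Ccrd_026415* (log2 fold change 3.09, SE 0.28).

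Beyond single genes, runs of neighbouring genes stood apart between the lines. Expressed genes, with an average log2 CPM of 3 or more, were taken in windows of 100 along their identifiers, and the median deviation of each sample from the mean of the 12 samples was read in each window. Of 131 windows, 21 differed by at least 0.3 (log2) with no overlap between the lines, 15 lower and 6 higher in L24. The identifiers of a window span several scaffolds, from 3 to 91 in these 21, and whether those scaffolds are neighbours on a chromosome was not tested.

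The widest run lower in L24 went from *Ccrd_005096* to *Ccrd_005924* in 4 adjoining windows. Their differences were -0.46, -0.36, -0.49 and -0.40, and L24 was the lowest of all 4 groups in each, while WT was the highest. From *Ccrd_014176* to *Ccrd_014535*, 2 windows had differences of -0.51 and -0.55, where L24 (mean -0.33 and -0.38) alone lay below 0 and WT, L1 and L18 lay between 0.06 and 0.17. The same held from *Ccrd_022666* to *Ccrd_022844* (-0.39). The run from *Ccrd_008369* to *Ccrd_009034* was higher in L24 in 3 windows, by 0.38, 0.39 and 0.35, and here L18 was the group that stood apart, at -0.24, -0.27 and -0.20.

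In the window from *Ccrd_011118* to *Ccrd_011276* the L24 samples differed among themselves. L24 replicate 1 was at 0.48, L24 replicate 3 at 0.27 and L24 replicate 2 at -0.08, the last beside -0.13, -0.09 and -0.15 in L18. The 2 windows before it, from *Ccrd_010761*, showed the same order, with 0.53 and 0.55 in L24 replicate 1 and -0.17 and -0.10 in L24 replicate 2.

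Of the genes tested in the 21 windows, 42.8% were called, against 28.3% elsewhere, which follows in part from the way the windows were chosen. When the running median of the neighbours was subtracted from each log2 fold change, 5429 genes (27.1%) remained called in the same direction and by at least 2 SE, 2652 higher and 2777 lower. Of the genes named here with a call, only *Ccrd_013113* lost it in this way. Among the 5 4CL genes that were lower in L24, *Ccrd_018719*, *Ccrd_007113* and *Ccrd_018671* had neighbours with medians of -0.52, -0.41 and -0.57. The neighbours of the remaining lower 4CL genes are not given here.

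**Figure D5:**
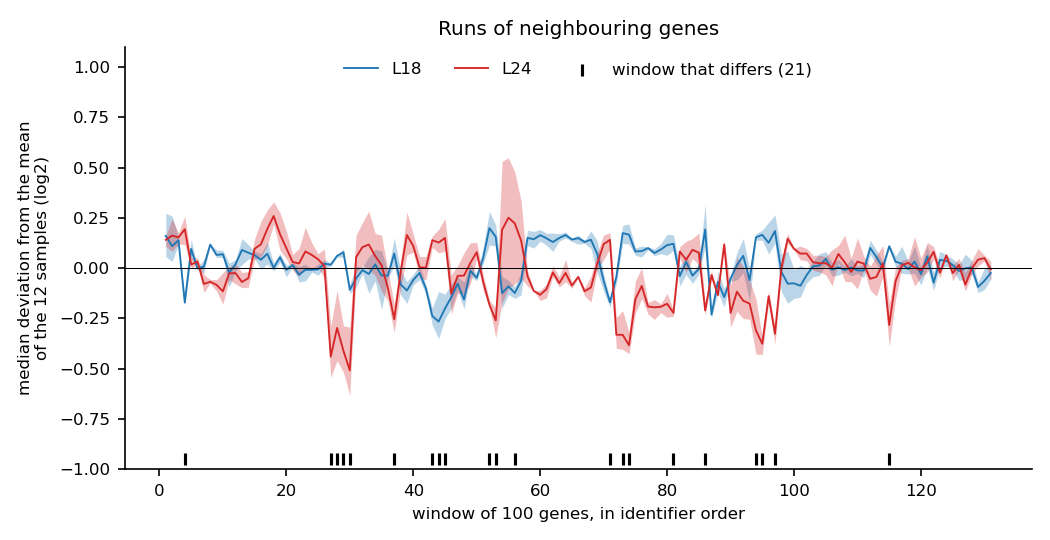
Median deviation of L18 (blue) and L24 (red) from the mean of the 12 samples (log2) in 131 windows of 100 neighbouring genes, in identifier order. Lines are means of 3 samples, shaded bands span the lowest and the highest sample, and black marks show the 21 windows in which the lines differed. The red band widens near window 55, where the L24 samples spread from below 0 to above 0.5.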

How the data were processed

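RNA of WT, L1, L18 and L24 callus was sequenced in 3 samples each on a NovaSeq with TruSeq libraries. According to the paper, the authors trimmed reads with BBDuk, aligned them with STAR to the cardoon genome CcrdV1 and tested genes with HTSFilter and edgeR. The counting tool and its strand setting are not given in the sources used here, so that reads of overlapping or antisense genes cannot be told apart. The deposited count table holds unscaled counts of reads per gene. The deposited FPKM table holds the authors' FPKM, in which reads are divided by transcript length and by depth, and it served for levels and alternatives only. No column of another series was present.

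Members and gene lists were chosen with earlier results of these data known. Of 26505 genes, 20024 exceeded 10.5 normalized counts in at least 1 sample, the threshold with the highest Jaccard index between samples of a group (0.961). All 12 samples entered 1 fit with a term per group, TMM normalization and edgeR's quasi-likelihood F test (edgeR 4.0.16, R 4.3.3), with Benjamini-Hochberg adjustment at 0.05 over all genes tested. The SE is the size of the log2 fold change divided by the square root of F. The floor is 3 counts. A bound for a line with no read sets the other line against 3 counts summed over 3 samples, and a ratio of summed counts has an exact binomial interval of 95%. Running medians took 50 genes on each side.

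Lists were drawn from descriptions in a shortened copy of a supplementary table of the study (3630 rows, genes called between L1 and WT) and from its GO terms. No identifier matched the RefSeq gene table, so that genes without a description stay unnamed. Genes named are those the paper names, the called list members with the largest differences, the 10 called genes in each direction with the largest fold changes among those with separate samples and at least 100 normalized counts, the 5 highest genes at the floor in each direction and the 3 most abundant called genes in each direction with at least 2-fold differences. Of the list members and of the genes with the largest fold changes a selection is printed, and some abundant list members were added after their values were seen. Alternatives were 2 filters, 2 normalizations, 2 other edgeR tests, DESeq2 1.42.0, a fit of the 6 samples alone, replicate number as a block, limma 3.58.1 on log2(FPKM + 1), on log2(FPKM + 0.1) and after a filter that asked for an FPKM of 1 in 3 samples, and leaving out each sample. The procedure was tested on simulated data. Figures were drawn with Python 3.11.15 and matplotlib 3.10.9.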

Additional observations from a re-analysis of the deposited data

How the results depend on the processing

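The count of called genes stayed within 1.5 times 6143 in every alternative run, from 4456 to 5778 when 1 library was left out, with 4936 when only L24 and L18 were fitted, 6707 with DESeq2's Wald test and 6802 with edgeR's likelihood ratio test. Replicate number does not pair the samples, since the correlation of same-numbered deviations was -0.10, -0.34 and 0.29. Between differently numbered samples it ran from -0.52 (L18 replicate 3 with L24 replicate 1) to 0.53 (L18 replicate 2 with L24 replicate 1). A source of spread shared by such samples was not tested, and a block on replicate number would not remove it. With a replicate block 5779 genes were called, 2651 higher and 3128 lower, 295 of them in the gene lists. The counts higher and lower ran from 1992 to 2742 and from 2358 to 3124 without 1 library, the list members called from 251 to 296, the difference in distance from 53.5 to 63.3 and the windows that differ from 20 to 26. The difference in distance was 74.4 on log2(FPKM + 0.1). The windows that differ numbered 49 of 262 with 50 genes each and 7 of 64 at a mean log2 CPM of at least 5. Genes at the floor fell from 54 to 27 in L24 and from 27 to 11 in L18 with a floor of 1 count, and to 29 and 12 with at least 50 normalized counts in the other line. Those counts change with the definition of the windows and of the floor, by construction. Over 141 genes followed singly, 2573 of 2675 values kept their side of the threshold and 102, in 16 genes, fell short of it. No called gene changed direction, while 20 values of 8 genes that were not called did. On the authors' FPKM more genes were higher than lower, 3134 and 2678 with log2(FPKM + 1), 2923 and 2539 with log2(FPKM + 0.1) and 3051 and 2592 with the FPKM filter. A count of 0 in a line allows 3 counts at this depth, and with 3 samples a line no outlier test was made.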
